A study of Oryza sativa with 6 samples.

Results

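A group of 121 rice genes was selected because they read high on 3 of 6 root arrays and low on the other 3. They were drawn from 25727 genes that had a probe set of their own, of which they make up 0.47%. The genes were chosen by the deposited log2 signals themselves. A gene was taken where the lowest of 3 named arrays exceeded the highest of the remaining 3 by at least 1.5 log2, a difference called the gap here. The 3 named arrays, called the upper arrays, are those of Prasanna and Varadan without nitrogen, plus replicate 1 of Varadan labelled as supplied with nitrogen. The lower arrays are both Prasanna arrays with nitrogen and replicate 2 of Varadan with nitrogen. All upper arrays also had to read at least 8 log2, and both upper Varadan arrays had to lie within 1 log2 of each other. Of 128 genes that met these limits, 7 were left out as members of transporter and other families set aside by the rule: OsNRT2.3, OsAMT1.2, the urea transporter DUR3, BAT1, 1 phenylalanine ammonia-lyase gene and 2 protein phosphatases of type 2C. Since the signals chose the genes, the levels and gaps below describe the selection and none of them is a test of it.

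The arrays held root RNA of 14-day seedlings of Prasanna and Varadan, both released rice varieties, raised in hydroponics. By the labels, seed germinated for 7 days and seedlings then had 10 days in nitrogen-containing Yoshida solution before being divided between both supplies, which adds to more than 14 days. Each variety had 1 array without nitrogen and 2 with supplemented nitrogen, and no other genotype or agent is named. The labels do not state whether replicates are separate cultures, so any p-value covers only the spread among these arrays, possibly a technical one.

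Several facts about the arrays precede the results. Both upper Varadan arrays carry each other's values in the second deposited table, so which of them had which supply is not settled; the rule treats them alike and found the same 121 genes in either table. OsNRT2.3, a high-affinity nitrate transporter, read 12.49 and 12.29 log2 on these arrays and 7.78 on replicate 2 of Varadan, but it met the limits above and so had to read alike on both. OsNiR, the nitrite reductase, is not a member and read 11.26, 10.73 and 14.31 on the same 3 arrays. Its lower arrays all read above its upper ones, the mirror of the members. The rule did not select it, but OsNiR was named with earlier results of these data known. It is therefore no independent check on these arrays. The silicon transporter Lsi1, a root marker, read from 14.52 to 15.21 on all 6 arrays. Lsi2, another silicon transporter and root marker, followed the order of the group. It read 14.27 to 14.83 on the upper arrays and 13.57 to 13.68 on the lower ones. RCc3 (Os02g0662000), a further root marker, did not follow that order. It read 13.63 on replicate 2 of Varadan with nitrogen and 14.26 to 14.61 on the other arrays. Of 6 green tissue genes, 2 had a gap above 0 (33.3%, against 14.6% of all tested genes). The opposite order, all lower arrays above all upper ones, was found in 1 (16.7%, against 17.2%). The mean of all 6 ran from 10.75 to 11.08 log2 in Prasanna and from 11.26 to 12.60 in Varadan. None of 7 genes of dividing cells had a gap above 0 and none the opposite order. Their mean ran from 8.72 to 9.86. Bacillus RNA added as a control read from 7.84 to 11.04. The difference between the 3' and 5' ends of a control transcript is a sign of RNA quality. For GAPDH it ran from 3.06 to 3.52 in Prasanna and from 4.38 to 4.77 in Varadan. For actin it ran from 5.15 to 5.82 over all 6 arrays, and for cyclophilin from 1.34 to 1.83. The part of these features in the levels of the group was not tested. In RNA of whole roots, fewer cells of a type and less RNA per cell cannot be told apart.

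Roots that lack nitrogen raise transporters that take up nitrate and ammonium, recycle nitrogen held in other compounds, and alter the suberin and lignin of their outer and vascular cell walls. Allantoinase belongs to the ureide route, which releases ammonium from the breakdown products of purines. Heat shock factors are transcription factors that switch on chaperone genes, and several of them also answer to drought, salt and oxidative stress. Among the 121 genes, 116 were found in the reference table. Of these, 114 were listed as protein-coding, 1 as a pseudogene (Os02g0504000) and 1 as another RNA (Os07g0467200). A gene name was given for 19 of the 121 (15.7%), against 11.6% of all 21680 tested genes. The remaining genes are given by their locus, with no role.

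Members took up several times more of the summed signal on each upper array than on any lower one. The members' median in Prasanna was 11.10 log2 without nitrogen, against 8.17 and 8.33 on replicates 1 and 2 with it. Varadan had medians of 10.92 without nitrogen, 10.95 on replicate 1 with nitrogen and 8.09 on replicate 2. All tested probe sets had medians between 7.93 and 8.03. The members thus sat near the middle of the tested signals on the lower arrays and well above it on the upper ones, by construction of the rule. Their share of the summed linear signal in Prasanna was 1.10% without nitrogen, against 0.148% and 0.171% with it. The Varadan arrays gave 0.898%, 0.917% and 0.156%. Between 63 and 72 members stood among the brightest 10% of probe sets on an upper array, and between 5 and 10 on a lower one.

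**Figure D1:**
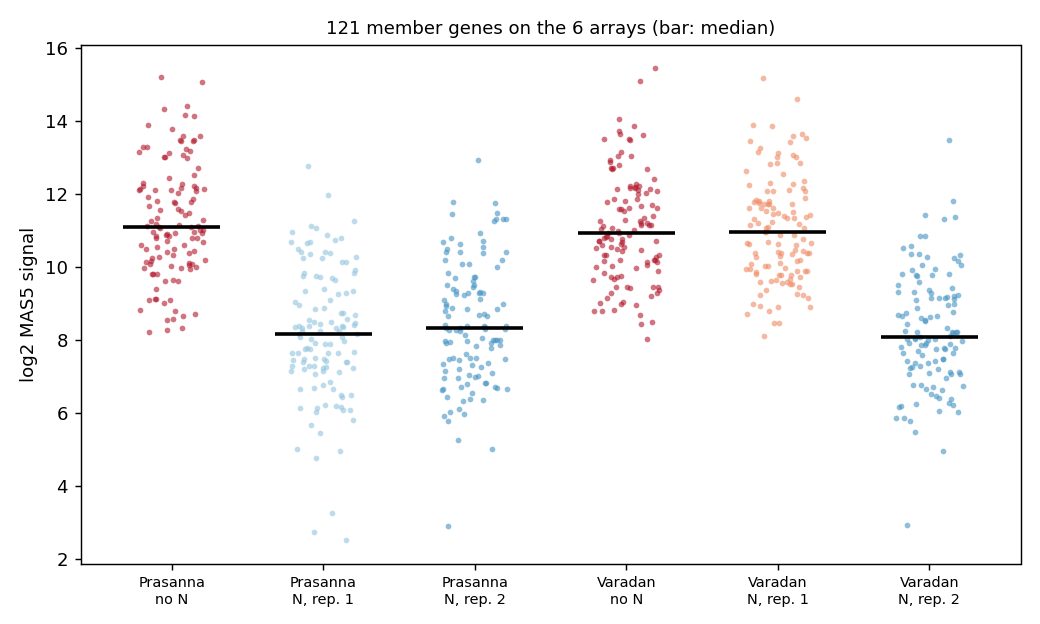
Log2 signal of the 121 member genes on each of the 6 arrays (1 point per gene, black bar at the median). Medians lie between 10.92 and 11.10 on the 3 upper arrays and between 8.09 and 8.33 on the 3 lower ones.

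The median gap was 1.95 log2 and the range 1.51 to 5.11, against a median of -0.73 over all tested probe sets with 1 gene. Of all tested genes, 0.798% had a gap of at least 1.5 on their brightest probe set. A gap of at least 2 was found in 55 members and one of at least 3 in 9. Just inside the limit of 1.5 lay OsHox14 (1.51), Os04g0412100 (1.52) and Os03g0806800 (1.53). Just outside it lay Os01g0857400 (1.49), Os03g0720800 (1.49) and Os10g0516200 (1.496), so values run on across the limit. Some gaps rest on dim readings: 7 members had a reading below the 40th percentile of its array (4.89 to 5.42 log2), a level not taken as above background here.

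Values of single genes are given in log2 signal, in each variety first without nitrogen and then with it, for replicates 1 and 2. OsALN, allantoinase, stood at 10.72, 4.99 and 5.78 in Prasanna and at 10.44, 10.30 and 6.70 in Varadan. Its gap of 3.60 corresponds to 12.1-fold, and its Prasanna reading of 4.99 was not above background. Of 4 tested genes of the ureide route that have a name, AAH (allantoate amidohydrolase, Os06g0665500) had a gap of 0.45, and the other two, UGLYAH and UAH, had the opposite order of arrays. AAH stood at 10.65, 9.93 and 9.84 in Prasanna and at 10.56, 10.39 and 9.55 in Varadan. The upper and lower arrays of AAH did not overlap, yet they lay much closer together than those of OsALN.

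OsABCG5, also known as RCN1, is an ABC transporter of the G subfamily that rice roots need for a suberised barrier. It stood at 10.39, 7.64 and 7.50 in Prasanna and at 10.49, 10.60 and 7.41 in Varadan, with a gap of 2.75. All upper arrays of OsABCG5 together spanned 0.21 log2. Of 12 tested ABCG genes, 3 had a gap above 0 (25.0%), where 14.6% of all tested genes did, and 2 the opposite order (16.7%), where 17.2% of all tested genes did. This family and those below were chosen because a member bears the name, so each count includes that member by choice. The counts cover only genes that bear such a name in the reference table. Since 11.6% of all tested genes have any name, a family may hold further tested genes that were not counted. OsAT5, an acyltransferase of the BAHD family that joins ferulate to lignin precursors, stood at 12.70, 10.89 and 10.80 in Prasanna and at 13.05, 12.85 and 10.84 in Varadan. Its gap was 1.81. Of 6 tested genes with OsAT names, 5 had a gap above 0 (83.3%). OsAT10, which adds p-coumarate to arabinoxylan, stood at 9.80, 7.20 and 7.57 in Prasanna and at 9.27, 8.77 and 2.36 in Varadan. OsAT7 stood at 14.02, 11.77 and 11.37 in Prasanna and at 13.35, 12.76 and 11.23 in Varadan. Both missed the limit of the gap, at 1.199 and 0.99, and the reading of 2.36 was not above background.

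LAC10, a laccase, an enzyme class that oxidises lignin precursors, stood at 10.43, 7.13 and 8.39 in Prasanna and at 10.18, 10.63 and 7.36 in Varadan. Its Prasanna replicates with nitrogen differed by more than 1 log2, and both lay below every upper array. Of 8 tested laccases 3 had a gap above 0 (37.5%, against 14.6% of all tested genes) and 2 the opposite order (25.0%, against 17.2%). OsCHS1, chalcone synthase, the entry enzyme of flavonoid synthesis, stood at 11.52, 8.56 and 8.41 in Prasanna and at 10.77, 10.45 and 8.26 in Varadan. OsCASPL1C2, a membrane protein of the CASP-like family, stood at 11.06, 9.03 and 9.32 in Prasanna and at 11.12, 11.47 and 8.73 in Varadan. Gaps were 1.79 for LAC10, 1.89 for OsCHS1 and 1.74 for OsCASPL1C2, all under the members' median.

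**Figure D2:**
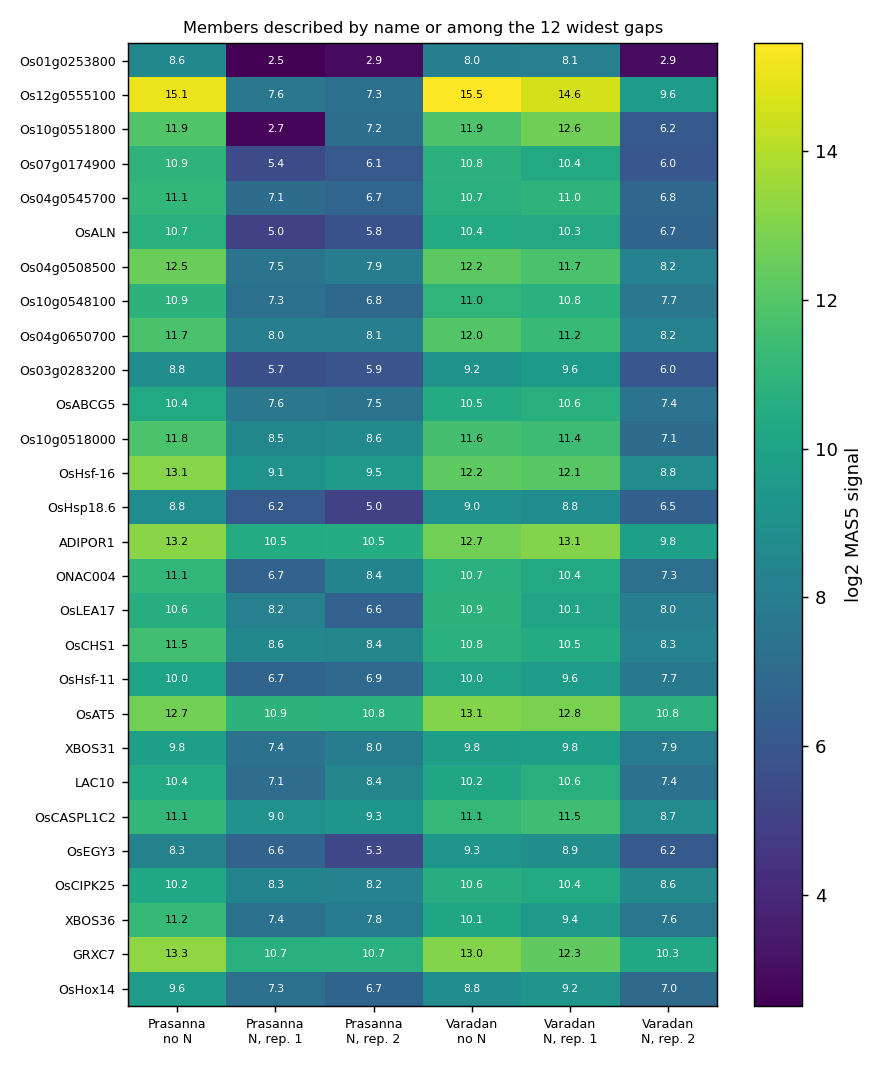
Log2 MAS5 signal (colour and printed value) of the members described by name and of the 12 members with the widest gaps, in rows, on the 6 arrays, in columns. Each row is brighter on the 3 upper arrays (both labelled no N, and Varadan N, rep. 1) than on the other 3, as the rule requires.

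Named members also included 2 heat shock factors. OsHsf-16 (HSFC2B), a heat shock factor of class C, stood at 13.13, 9.10 and 9.50 in Prasanna and at 12.22, 12.11 and 8.77 in Varadan. OsHsf-11 (HSFA2A), of class A, stood at 10.02, 6.69 and 6.95 in Prasanna and at 9.97, 9.60 and 7.74 in Varadan. The gap was 2.62 for OsHsf-16 and 1.86 for OsHsf-11. Of 22 tested heat shock factors 9 had a gap above 0 (40.9%, where all tested genes gave 14.6%). Split by class after seeing the values, these were 4 of 4 in class C, 3 of 6 in class B and 2 of 12 in class A. The other class C genes were Os02g0232000 (gap 0.92), Os01g0625300 (0.86) and Os01g0733200 (0.60), none of which reached the limit. Os01g0571300 (HSFA6B), of class A, had a wider gap than these (1.28) and also missed it. The opposite order was found in 1 of the 22 factors (4.55%, against 17.2% of all tested genes).

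OsHsp18.6, a small heat shock protein, stood at 8.79, 6.16 and 5.0 in Prasanna and at 9.01, 8.79 and 6.45 in Varadan. The upper arrays spanned 0.23 log2 while the lower ones spread more widely. Of 19 tested small heat shock proteins 5 had a gap above 0 (26.3%, against 14.6% of all tested genes). The opposite order was found in 1 (5.26%, against 17.2%), and OsHsp18.6 alone entered the group. OsLEA17 (LEA3-2), a late embryogenesis abundant protein that accumulates in tissue losing water, stood at 10.55, 8.17 and 6.55 in Prasanna and at 10.88, 10.07 and 8.03 in Varadan. Its relative LEA3-1 (Os05g0542500) stood at 13.35, 10.40 and 9.67 in Prasanna and at 12.84, 12.27 and 11.22 in Varadan. LEA3-1 had a gap of 1.05 and stayed outside the group.

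Further named members act in transcription and signalling. ONAC004, a NAC transcription factor, stood at 11.10, 6.65 and 8.37 in Prasanna and at 10.71, 10.39 and 7.26 in Varadan. OsHox14, a homeodomain-leucine zipper factor, stood at 9.62, 7.29 and 6.67 in Prasanna and at 8.80, 9.23 and 6.96 in Varadan. Of 9 tested NAC genes 2 (22.2%), and of 26 tested homeobox genes 8 (30.8%), had a gap above 0, where 14.6% of all tested genes did. The opposite order was found in 1 of the 9 NAC genes (11.1%) and in 0 of the 26 homeobox genes, against 17.2% of all tested genes. OsCIPK25, a kinase regulated by calcineurin B-like calcium sensors, stood at 10.20, 8.33 and 8.25 in Prasanna and at 10.56, 10.41 and 8.59 in Varadan. Of 23 tested kinases of this family, 7 had a gap above 0 (30.4%) and 5 the opposite order (21.7%).

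XBOS31 and XBOS36 are named as relatives of XB3, a RING-type ubiquitin ligase. XBOS31 stood at 9.81, 7.40 and 7.96 in Prasanna and at 9.76, 9.79 and 7.88 in Varadan. XBOS36 stood at 11.18, 7.41 and 7.84 in Prasanna and at 10.14, 9.44 and 7.59 in Varadan. They were the only 2 of 7 tested genes of this name with a gap above 0 (28.6%, against 14.6% of all tested genes), and 3 others had the opposite order (42.9%, against 17.2%). GRXC7, a glutaredoxin, a small redox protein, stood at 13.30, 10.74 and 10.72 in Prasanna and at 13.03, 12.29 and 10.27 in Varadan. Of 9 tested glutaredoxins with GRXC names 2 had a gap above 0 (22.2%) and 3 the opposite order (33.3%). OsEGY3 stood at 8.28, 6.64 and 5.27 in Prasanna and at 9.28, 8.90 and 6.16 in Varadan. ADIPOR1 stood at 13.17, 10.49 and 10.50 in Prasanna and at 12.69, 13.07 and 9.81 in Varadan. Their gaps were 1.64 for OsEGY3 and 2.19 for ADIPOR1.

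The widest gaps belonged mostly to genes without a name. Os01g0253800 stood at 8.57, 2.51 and 2.90 in Prasanna and at 8.03, 8.12 and 2.92 in Varadan. Its readings on all lower arrays were not above background, and with these raised to that level the gap was at least 2.96. Os12g0555100 stood at 15.07, 7.63 and 7.25 in Prasanna and at 15.45, 14.60 and 9.59 in Varadan. With a gap of 5.02 (32.4-fold) between readings all above background, its lower arrays did not approach the upper ones. Os10g0551800 stood at 11.93, 2.72 and 7.19 in Prasanna and at 11.86, 12.62 and 6.19 in Varadan. Its Prasanna replicates with nitrogen lay 4.47 log2 apart, the lower one not above background. In 120 of 121 members the distance of the Prasanna array without nitrogen from the nearer replicate exceeded the difference of the replicates. Os09g0482860 was the exception, with a distance of 2.37 and replicates 3.09 apart, of which the lower was not above background.

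Os07g0174900 stood at 10.93, 5.44 and 6.10 in Prasanna and at 10.80, 10.37 and 6.04 in Varadan. Os04g0545700 stood at 11.10, 7.06 and 6.71 in Prasanna and at 10.69, 10.95 and 6.78 in Varadan. Os04g0508500 stood at 12.53, 7.48 and 7.93 in Prasanna and at 12.19, 11.72 and 8.23 in Varadan. Each of these had upper arrays within 1 log2 of one another and gaps of 4.27, 3.63 and 3.49. Os10g0548100 had a gap of 3.13, Os04g0650700 of 3.01, Os03g0283200 of 2.80 and Os10g0518000 of 2.72.

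Within a gene the 3 upper arrays were not equal. The rule bound the upper Varadan arrays to each other and left the Prasanna one free, so it shapes which array reads highest. The Prasanna array without nitrogen was the highest of all 6 in 67 members, and each of the upper Varadan arrays in 27. It exceeded both upper Varadan arrays by at least 1 log2 in 6 members, among them Os05g0568800 and Os03g0197100. Os05g0568800 stood at 13.44, 8.68 and 8.71 in Prasanna and at 11.06, 10.87 and 7.87 in Varadan. Os03g0197100 stood at 14.41, 10.42 and 10.38 in Prasanna and at 12.69, 12.07 and 9.51 in Varadan. The others were Os04g0585700, Os10g0486100, Os04g0412100 and XBOS36. Os01g0644200 alone was lower by at least 1 log2 than both, at 8.21, 6.44 and 6.44 in Prasanna and 9.84, 9.24 and 4.96 in Varadan, the last not above background. Against the Varadan array without nitrogen, the Prasanna one was at least 1 log2 higher in 7 members (11.6% of all tested probe sets). It was at least 1 log2 lower in 4 members (13.0% of all tested). The lowest reading fell on replicate 1 of Prasanna in 46 members, replicate 2 of Prasanna in 27 and replicate 2 of Varadan in 48. The upper arrays spanned a median of 0.54 log2 within a gene, and the lower arrays, which the rule did not bind to one another, 0.65. In 103 members all upper arrays lay within 1 log2.

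Both upper Varadan arrays tracked each other within the limit of 1 log2 set by the rule. Their difference, without nitrogen minus replicate 1, ran from -0.99 to 0.996 with a median of 0.09, and was above 0 in 65 members and below 0 in 56. Replicate 1 exceeded replicate 2 of the same labelled group by a median of 2.68 log2 (1.56 to 6.43). The array without nitrogen exceeded replicate 2 by a median of 2.68 as well (1.58 to 5.87). In Prasanna the array without nitrogen exceeded replicate 1 by a median of 2.83 (1.64 to 9.20) and replicate 2 by 2.61 (1.57 to 7.82). The Prasanna replicates with nitrogen differed by a median of -0.18, replicate 1 minus replicate 2, with 12 members at -1 or below, where 7.83% of all tested probe sets lay, and 4 at 1 or above, where 9.21% did.

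**Figure D3:**
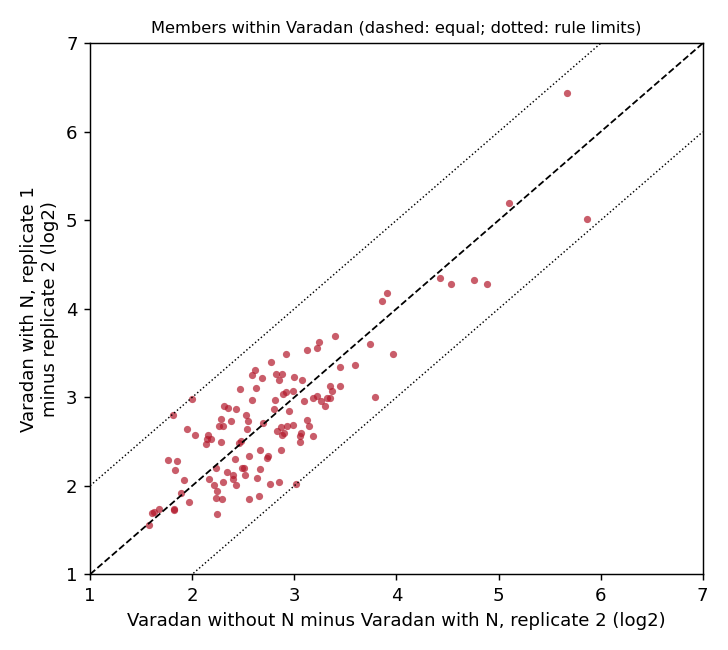
Excess over Varadan with nitrogen, replicate 2 (log2), of the Varadan array without nitrogen (horizontal) and of replicate 1 with nitrogen (vertical), 1 point per member. Points lie along the dashed line of equality, between the dotted lines that the rule sets at a difference of 1 log2.

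The labelled comparison set 2 arrays without nitrogen against 4 with it, in an additive model of variety and supply over all 6 arrays. The members' log2 difference ran from 1.18 to 5.49 with a median of 2.04, and its standard error had a median of 0.73, against 0.37 over all tested probe sets. The rule used the same arrays, so these values describe the selection. Limma called 0 of 34316 tested probe sets at an adjusted p of 0.05 (0%), and hence 0 of 121 members; the smallest adjusted p was 0.123. At an unadjusted p under 0.05, 98 members were higher without nitrogen, where 8.58% of all tested probe sets were. Within Prasanna (1 array against 2) the median difference was 2.73 and within Varadan 1.38. Limma called 0 probe sets in each, with 65 members higher at an unadjusted p under 0.05 in Prasanna (4.73% of all tested) and 0 in Varadan (4.47%). In the second table, with both upper Varadan arrays exchanged, 101 members were higher at an unadjusted p under 0.05 over both varieties (3.25% of all tested) and 1 in Varadan (0.982%). In the log2 table OsALN differed by 3.64 ± 1.10 (SE) over both varieties, OsABCG5 by 2.15 ± 0.81 and Os12g0555100 by 5.49 ± 1.44.

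The outcome over both varieties turned on the array labelled Varadan with nitrogen, replicate 1. Without it (2 arrays against 3), the median difference of the members was 2.73 with a median standard error of 0.26. Limma then called all 121 members higher without nitrogen, where it called 5.96% of all tested probe sets higher. OsALN then differed by 4.65 ± 0.45, OsABCG5 by 2.93 ± 0.23 and Os12g0555100 by 6.87 ± 0.37. Within single varieties 54 members were called in Prasanna (0.245% of all tested) and 41 in Varadan (0.379%), the latter from 1 array against 1 with the spread taken from the Prasanna replicates. In Prasanna the calls did not depend on that array alone: without replicate 2 of Varadan with nitrogen instead, 52 members were called there (0.216% of all tested) and all 121 were higher at an unadjusted p under 0.05 (8.55%), while limma called 0 probe sets over both varieties and in Varadan. Because both the rule and the doubt about this array rest on the same signals, these counts say nothing further about the members. The difference between the varieties' responses, a test added after seeing the data, was called for 0 members and 0 of all tested probe sets by limma (smallest adjusted p = 0.925). At an unadjusted p under 0.05 it was found in 0 members and in 5.36% of all tested probe sets. Its median over the members was 1.51 log2, Prasanna minus Varadan, and since the rule chose genes by these same values it shapes the members' differences too.

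Other probe sets of the same genes, which did not meet the rule, gave a further reading from the same arrays and RNA. There were 28 such probe sets for 21 member genes, of which 20, for 16 genes, passed the filter on low values. These leave out 10 further probe sets of 9 member genes that met the rule themselves, with gaps from 1.63 to 2.45, so the 20 were left because they missed a limit. A gap above 0 was found in 13 of the 20, where 13.7% of all tested probe sets with 1 gene had one. With those 10 included it was 23 of 30, but the rule itself fixed a gap above 0 for the 10. By their identifiers, some of the 13 come from the same target sequence as the member probe set and may share its probes. Those of Os04g0654600, Os03g0793900 and Os05g0409500 are among them. Shared probes were not tested, so the 13 are no independent check on the members. The second probe set of Os12g0555100 had a gap of 6.50 and missed the rule only because both upper Varadan arrays differed by 1.24 log2. That of Os05g0409500 had a gap of 2.35 but did not read 8 on all upper arrays. The 7 with a gap below 0 included probe sets of OsHsf-11, OsCHS1 and XBOS36, each with a reading of 6.33 or less on at least 1 upper array. Probe sets as dim also had a gap above 0, among them another one of OsHsf-11 (0.40) and one of Os03g0664400 (0.80). In none of the 20 did every lower array exceed every upper one. Of all tested genes, 17.2% had that order on their brightest probe set.

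**Figure D4:**
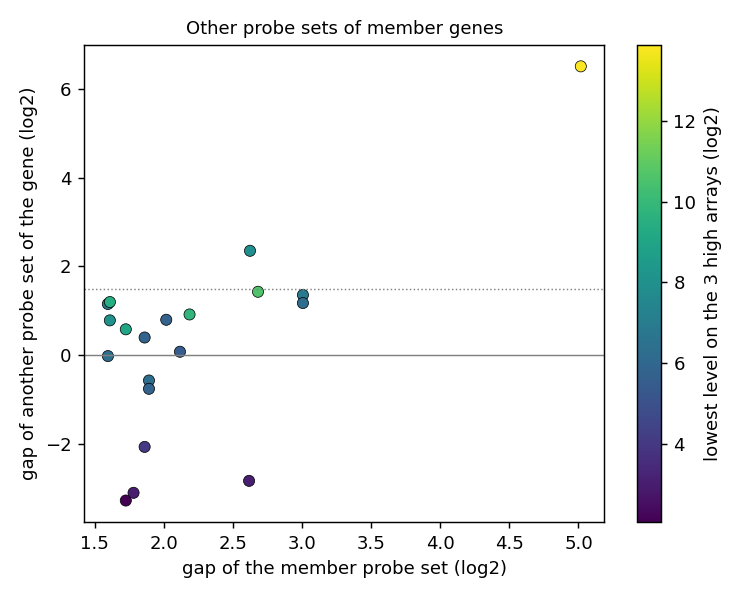
Gap of a second probe set (vertical, log2) against the gap of the member probe set of the same gene (horizontal, log2), coloured by the lowest level on the upper arrays. Of the 20 points 13 lie above 0, and dim probe sets lie on both sides of it; the 10 further probe sets that met the rule are not drawn.

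Some members lie beside one another in the genome. In the gene order of the reference table, 23 of 116 placed members (19.8%) lay within 10 genes of another member, in 11 neighbourhoods. Among genes low on the upper arrays and high on the lower ones by the mirrored rule, a smaller set, 9 of 64 placed (14.1%) did. Whether either share differs from that of genes in general was not tested. Os03g0793800, Os03g0793900 and Os03g0794000 follow one another directly, with gaps of 2.06, 2.68 and 2.04. Os03g0793800 stood at 13.90, 10.28 and 11.45 in Prasanna and at 13.51, 13.60 and 10.52 in Varadan. Os03g0793900 stood at 11.56, 8.08 and 8.88 in Prasanna and at 11.59, 12.16 and 8.67 in Varadan. Os03g0794000 stood at 10.61, 8.49 and 8.33 in Prasanna and at 10.53, 10.96 and 8.10 in Varadan. Each of the 3 genes had all upper arrays above all lower ones, and whether their probes share sequence was not tested. Further direct neighbours were Os02g0503900 with the pseudogene Os02g0504000 (gaps 2.32 and 2.49) and Os05g0568600 with Os05g0568800 (2.02 and 2.15).

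Named members also had such neighbours. OsHsf-11 lay close to Os03g0745200 (gap 2.47), which stood at 10.12, 6.75 and 6.32 in Prasanna and at 9.90, 9.94 and 7.43 in Varadan. OsABCG5 lay 9 genes from Os03g0283200 (gap 2.80), and OsAT5 7 genes from Os05g0280500 (2.29). The 18 tested genes lying between neighbouring members had gaps from -1.14 to 0.28. Of these 4 were above 0, where 14.6% of all tested genes were. Such genes are non-members by definition, so that they fell short of the rule was fixed in advance. By chromosome, members ran from 8 of 2974 tested genes on chromosome 1 to 10 of 945 on chromosome 11, and chromosome 3 held the most, 20 of 2668.

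**Figure D5:**
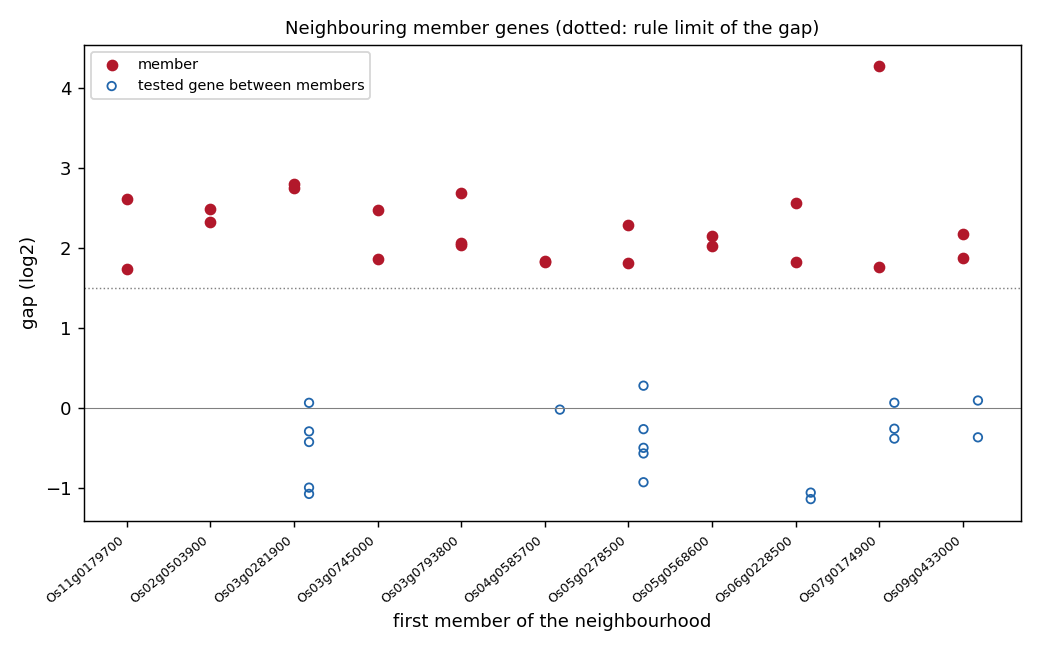
Gap (log2) of member genes that lie within 10 genes of another member (filled points) and of the tested genes between them (open circles), by neighbourhood named after its first member. Members lie above the dotted limit of 1.5 and the genes between them, non-members by definition, at 0.28 or below.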

How the data were processed

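Root RNA of 6 samples was hybridised to Affymetrix rice arrays, 1 per sample. Signals are MAS5 values, per the submitters' processing notes; their version is not given in the sources used here. Values as log2 signals, used as given, and the same signals as linear intensity values were deposited by the authors; the arrays had been scaled to a common level (trimmed mean near 499.9). The deposited tables match within 1e-06 log2 on 4 arrays by name, with a pair of Varadan columns exchanged. The log2 table served as the main one. The labels give only a replicate number 2, so number 1 is a name. Depth does not apply to arrays: their number limits precision.

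After leaving out 187 controls, 34316 probe sets with a mean at or above the 40th percentile were tested, two-sided, with limma 3.58.1 in R 4.3.3 (lmFit, eBayes with trend) and Benjamini-Hochberg adjustment at 0.05. The fit was tested on simulated data. Where a gene had several member probe sets, the one with the widest gap was used (9 genes); for lists, the brightest. Of the members' probe sets, 20 carry a suffix that marks probes shared between transcripts. Alternatives were the second table, no filter, a pseudocount of 32, quantile normalization, other variance models, other limits of the rule and leaving out each array.

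Members and lists were chosen with earlier results of these data known. The reference table (assembly ASM3414082v1) gives symbols and synonyms but was found to hold no gene descriptions. Planned function groups by description were therefore replaced, after seeing the data, by lists of gene names built around the named members, and planned promoter motifs were not run, as no promoter sequence was used here. Families were left out by name, and the phenylalanine ammonia-lyase locus from general knowledge, so an unnamed locus of such a family may remain. Genes named are the 12 widest gaps, the members with a name except 1 that is not reported here, those at the limit, neighbours, genes with differing probe sets, and OsNRT2.3, OsAMT1.2 and OsNiR; single examples of uneven levels and list relatives were chosen after their values were seen.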

Additional observations from a re-analysis of the deposited data

How the results depend on the processing

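The count of 121 members moved with the limit of the gap, to 277 at a gap of at least 1 and to 55 at 2. Leaving out 1 array gave 153 to 214 genes, the most without Varadan with nitrogen, replicate 1 (214). Each of these lists held all 121, which was bound to be so, since 1 array fewer can only loosen the rule. The other limits, scalings and the second table gave between 95 and 146; a pseudocount of 32 gave 117 genes, 112 of them members, and quantile normalization 126, with 118. Limma called 0 probe sets in each labelled comparison under the second table, no filter, the pseudocount, quantile normalization and both other variance models. Leaving out 1 array gave 0 to 4616 calls over both varieties, 0 to 171 in Prasanna and 0 to 241 in Varadan. The 4616, 171 and 241 came without Varadan with nitrogen, replicate 1, and 139 in Prasanna came without replicate 2; in each of these fits the lone Varadan array with nitrogen is assumed to vary like the other groups. Every member kept its direction over both varieties in every such setting of its own probe set. The limits of the rule fix this for the second table and for each array left out, so it is no check on the members. Other probe sets turned the direction in 4 of 20 cases: Os11g0179700 (-0.76), OsHsf-11 (-0.20), Os07g0599900 (-1.18) and Os01g0830500 (-1.15); the cause was not tested. No paired analysis was possible because the groups compared share fewer than 2 replicate numbers, with 1 array without nitrogen in each variety. Low signal limits 7 members with a reading not above background.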

Other observations

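Some lists of transcription factors, made from gene names, held no member. Only 19 of the 121 members have a name, and whether unnamed members belong to these families was not tested. None of 6 tested WRKY factors had a gap above 0 (0 of 6, where 14.6% of all tested genes did), and 1 had the opposite order (16.7%, where 17.2% did). Of 19 tested bZIP factors 4 had a gap above 0 (21.1%) and 5 the opposite order (26.3%). Of 6 tested MYB factors 1 had a gap above 0 (16.7%). These lists were made after seeing the data and carry no test. A further 4 probe sets with no assigned gene and 1 with several genes met the limits of the rule and were not counted. The mirrored rule, low on the 3 upper arrays and high on the other 3, found 69 genes.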
